A study of Mus musculus with 36 samples.

Results

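The major urinary proteins are small lipocalins, barrel-shaped carriers that mouse hepatocytes make in large amounts and release into the blood. They pass into the urine, most of all in males, where they bind volatile pheromones and release them slowly. Their liver expression is known to depend on the pulsed growth hormone of males acting through STAT5, and on androgen, thyroid hormone and glucocorticoid. The genes arose by tandem duplication and many are nearly identical.

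The 8 genes described here, Mup1, Mup2, Mup3, Mup7, Mup11, Mup17, Mup20 and Mup21, were taken as a named list from the 53715 genes of the counts table, where 49 symbols are Mup genes or Mup pseudogenes. Mup20 encodes darcin, a urinary protein known as a male sex pheromone. All 8 passed the filter on low counts, as did 39 of the 49 Mup symbols and 14068 genes in all.

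The samples were livers of male C57BL/6 mice, which were 10 weeks old and had eaten a purified AIN93G diet for 6 weeks, since the age of 4 weeks. Control mice had it without tomato, Red mice with 10% by weight of red tomato powder, and Tangerine mice with 10% of powder from a tangerine tomato. Each diet had 12 libraries, each from liver RNA under its own mouse number and with 21290169 to 33810573 counts. The labels' protocol gives 11 to 12 mice per group, and all 36 libraries were used. The comparisons ask whether liver expression differed with either tomato, or between the tomatoes.

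In the GRCm38 annotation all 8 are protein-coding genes on the minus strand of chromosome 4. Mup7 (chr4:60066469-60070475), Mup2 (chr4:60135932-60154289), Mup1 (chr4:60498012-60501960), Mup11 (chr4:60658466-60662411) and Mup17 (chr4:61591929-61595871) lie in the central block of the cluster. Mup20 (chr4:62050234-62054158), Mup3 (chr4:62083476-62087342) and Mup21 (chr4:62147932-62150863) lie at its far end and are called the peripheral members here. Coding sequences of the 5 central members were 98.3 to 99.4% identical to each other in all 10 pairs. Between a central and a peripheral member the identity was 83.2 to 91.4%, and among the 3 peripheral members 87.2 to 95.4%, highest between Mup3 and Mup21.

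The stretch of 90 coding bases that varied most among the 8 shows how alike the members are. Bases that differ from Mup11 are in capitals, and positions count from the A of the start codon (bases 214 to 303 in Mup11). Mup1 and Mup2 carry the Mup11 letters without a difference, and Mup17 carries those of Mup7.
Mup11: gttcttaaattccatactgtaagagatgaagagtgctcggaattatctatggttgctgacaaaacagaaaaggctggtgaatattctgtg
Mup7: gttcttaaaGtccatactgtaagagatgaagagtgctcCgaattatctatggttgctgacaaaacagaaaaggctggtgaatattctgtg
Mup20: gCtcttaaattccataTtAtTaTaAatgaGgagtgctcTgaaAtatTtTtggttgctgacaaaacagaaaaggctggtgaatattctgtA
Mup21: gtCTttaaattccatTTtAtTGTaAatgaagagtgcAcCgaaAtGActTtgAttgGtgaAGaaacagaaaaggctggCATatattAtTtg
Mup3: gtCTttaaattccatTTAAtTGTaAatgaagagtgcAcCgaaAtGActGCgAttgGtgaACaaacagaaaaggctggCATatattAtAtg
Of the 90 columns, 31 varied. Mup7 differed from Mup11 at 2 bases, Mup20 at 12, Mup21 at 24 and Mup3 at 26.

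Over whole transcripts, 86.7% of the 50-base words of Mup3 occurred in no other annotated gene. The share was 80.7% for Mup21, 49.5% for Mup20, 38.4% for Mup1, 22.2% for Mup11, 21.9% for Mup17, 21.8% for Mup2 and 13.3% for Mup7. A word could be shared by as many as 19 genes. Values of Mup3 and Mup21 therefore rest mostly on sequence of their own, while single values of the 5 central members, and in part of Mup20, are uncertain because reads could be divided among near-identical copies. The sum over the 8 does not change with how reads are divided among them, but it can gain or lose reads to the other Mup genes.

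The start regions of the members are alike as well. RefSeq windows around the annotated start (GRCm38.p6), most of each lying before it, were found for 6 of the 8, all but Mup1 and Mup20. The letters TATATAA, searched on both strands, occurred in 5 of these 6, all but Mup7, in 13 of the 14 Mup promoters in that table, and in 3.24% of 32851 promoters of all genes. The last bases before the Mup7 start match the first bases of the Mup2 stretch below, which lie well before its TATATAA. The Mup7 window thus does not cover the matching place, and whether Mup7 has these letters there was not examined. The 150 bases before the start are shown for a central pair and for the peripheral pair that is most alike, with TATATAA in capitals, each read on the minus strand.
Mup2 (chr4:60139857-60140006): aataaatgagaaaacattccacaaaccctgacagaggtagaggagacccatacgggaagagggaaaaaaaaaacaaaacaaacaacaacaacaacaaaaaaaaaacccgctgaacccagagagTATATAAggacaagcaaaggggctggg
Mup17 (chr4:61595833-61595982): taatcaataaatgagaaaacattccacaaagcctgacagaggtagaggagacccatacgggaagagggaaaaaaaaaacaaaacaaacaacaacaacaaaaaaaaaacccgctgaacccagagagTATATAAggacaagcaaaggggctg
Mup3 (chr4:62087318-62087467): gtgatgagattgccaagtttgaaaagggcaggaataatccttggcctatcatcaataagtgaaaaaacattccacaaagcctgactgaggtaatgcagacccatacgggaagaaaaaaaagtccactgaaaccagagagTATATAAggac
Mup21 (chr4:62150842-62150991): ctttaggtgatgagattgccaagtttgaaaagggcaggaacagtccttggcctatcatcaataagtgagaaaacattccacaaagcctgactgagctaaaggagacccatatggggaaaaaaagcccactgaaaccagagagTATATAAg
The TATATAA run began 27 bases before the RefSeq start in Mup2, 25 in Mup17, 11 in Mup3 and 8 in Mup21. These starts are not those of the gene coordinates given above, so the distances depend on which annotated start is used. The STAT-type letters TTCNNNGAA were in 0 of the 6 windows, against 8.30% of all promoters. The form with another base in the spacer was in 2, those of Mup7 and Mup11, against 6.95%. These are matches of letters in short windows and no test of binding.

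Several libraries stood apart before any diet was compared. In Control 245 and Red 177 the ratio of Mup17 to Mup1 counts was 2.68 and 2.70, whereas the other 34 libraries lay between 0.458 and 0.745. Red 186 held adipose and lymphocyte transcripts: its 7 lymphocyte markers summed to 98.8 CPM, read counts relative to the library total scaled with edgeR's TMM factors, against 1.47 to 4.50 CPM in the other 35 libraries, and its 7 adipose markers to 34.3 CPM against 4.59 to 10.9 CPM. Tangerine 216 had 12.8 CPM from 10 pancreas markers, against at most 0.396 CPM elsewhere. Results below are also given without these libraries where that changes a direction. Tangerine 192 had 111 CPM from 5 cholangiocyte markers, against 11.5 to 49.4 CPM elsewhere. It was left out only when each library was left out in turn for the Mup sum. The 8 hepatocyte markers, from albumin to Cps1, summed to 87709 to 130531 CPM, so that the defining markers of liver were abundant in all 36.

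The 8 genes made up 1.45 to 4.04% of all counts in a library, and all 49 Mup symbols together 3.03 to 9.36%. Per kilobase of exon, Mup3 was highest, at 7838 CPM per kb over the 36 libraries. Mup7 followed at 3864, then Mup11 at 2555, Mup20 at 2452, Mup2 at 2234, Mup17 at 1785, Mup1 at 1691 and Mup21 at 602 CPM per kb. In Control livers Mup3 stood at 8183 ± 980 CPM per kb (SD, n = 12), and the next, Mup7, at 3448 ± 1295. From Mup7 to Mup1, neighbours in the order over the 36 libraries differed by less than the larger of their SDs in Control and in Red. In Tangerine, Mup7 (4287 ± 1211 CPM per kb) and Mup11 (2831 ± 517) differed by more than that, as did Mup2 (2490.0 ± 370.2) and Mup17 (1919.9 ± 433). Mup3 at the top and Mup21 at the bottom stood clear of their neighbours. Length was the union of exons over all annotated transcripts: 1.58 kb for Mup1 and Mup11 and 1.34 kb for Mup2, but 0.93 kb for Mup17 and Mup20. In CPM without length, Mup11 (4026) stood above Mup7 (3992), and Mup2 (2985) and Mup1 (2678) stood above Mup20 (2276). The order from Mup7 to Mup1, and the gaps in it, thus depend on the annotated lengths.

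No member passed the test for a diet effect in any comparison. By edgeR's quasi-likelihood test with Benjamini-Hochberg adjustment at 0.05, 0 of 8 were called for Red against Control, where 0.149% of the 14068 genes were called. For Tangerine against Control the count was 0 of 8 beside 0.0142% of all genes, and for Tangerine against Red 0 of 8 beside 1.71%. For both tomato diets against Control it was 0 of 8 beside 0.00711%, and for any difference among the 3 diets 0 of 8 beside 1.18%. At an unadjusted p under 0.05 the member count was 0, 1, 0, 0 and 0 in that order, beside 13.3, 5.47, 15.1, 6.77 and 13.9% of all genes. DESeq2 and limma-voom also called 0 of 8 in each of the 5 comparisons. In bulk liver, a change in the number of hepatocytes and a change in RNA per hepatocyte cannot be told apart.

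**Figure D1:**
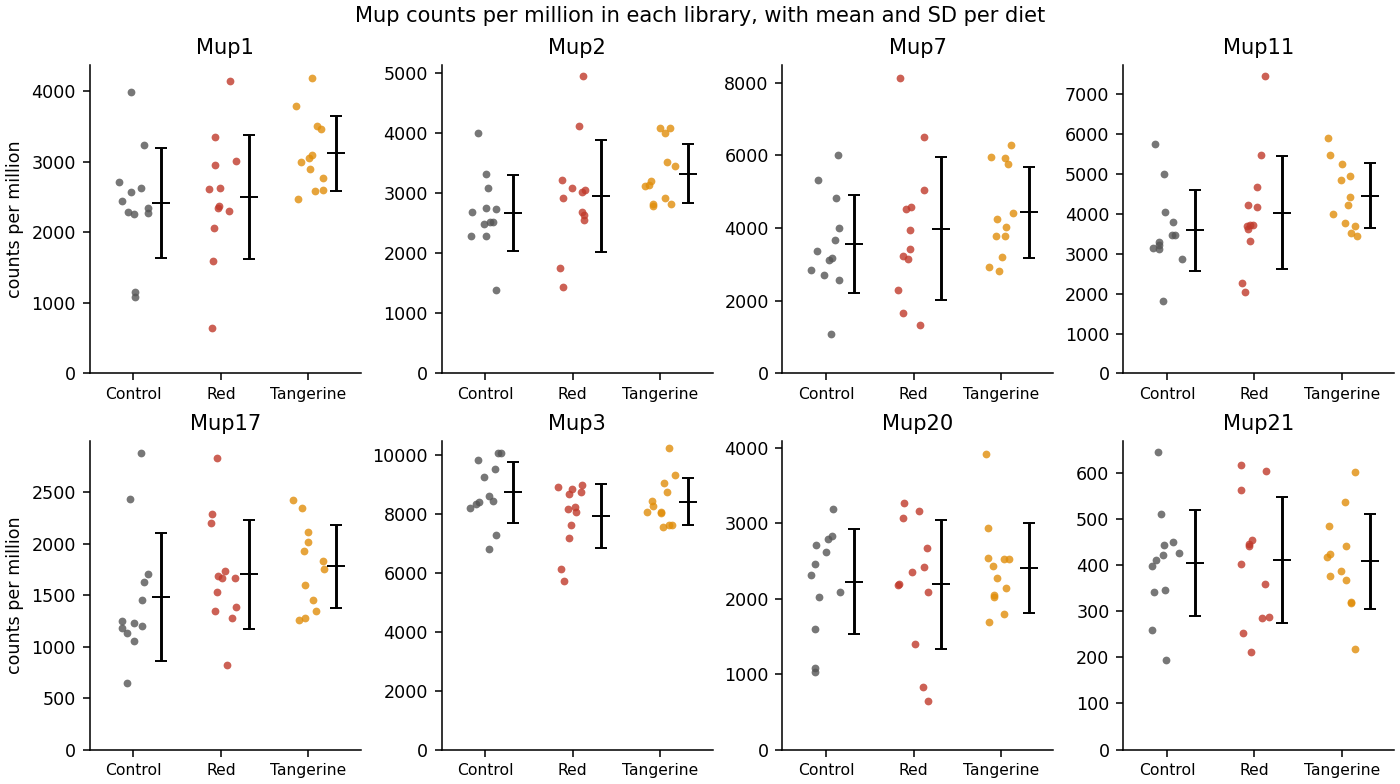
CPM of each Mup gene (vertical axis, from 0, scale differs by panel) in the 12 libraries of each diet; points are libraries and bars are the mean and SD. The ranges of the 3 diets overlap in every panel, and the lowest Tangerine value of Mup1, 2471 CPM, lies above the Control median of 2391 CPM.

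Summed over the 8, Mup counts in Control livers were lowest at 14575 CPM (Control 189), had a median of 24412 CPM and reached 35066 CPM (Control 188). In Red livers they ran from 14462 CPM (Red 177) through a median of 25368 CPM to 39893 CPM (Red 156). In Tangerine livers they ran from 22585 CPM (Tangerine 128) through 27033 CPM to 34898 CPM (Tangerine 242). The Tangerine libraries lay inside the span of both other diets and lacked their low end.

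The means were 25089.9 ± 5098 CPM for Control, 25724 ± 7165 for Red and 28354 ± 4118 for Tangerine (SD, n = 12 each). On the log2 scale the sum differed by 0.01 between Red and Control, by 0.19 between Tangerine and Control and by 0.18 between Tangerine and Red, against an SD of 0.33 between livers of a diet. The sum was given no test of its own. Without Control 189 the difference of Red from Control was -0.06, so that its sign rested on single libraries; without Red 156 it was -0.05.

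**Figure D2:**
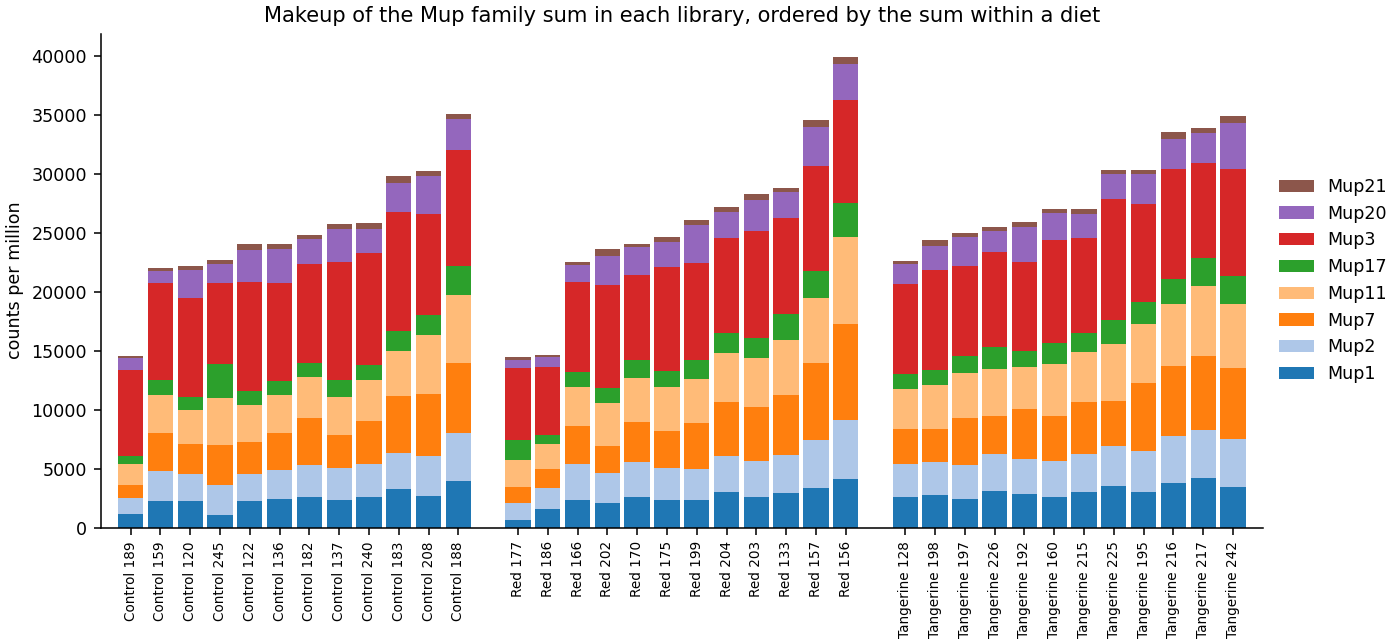
Stacked CPM of the 8 Mup genes (vertical axis, from 0) in each of 36 libraries (horizontal axis), ordered by their sum within a diet. Control 189, Red 177 and Red 186 have the lowest sums, and the Mup1 segment is thin against that of Mup17 in Control 245 and Red 177.

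Among the central members, all of which encode urinary proteins of the common, nearly identical type, Mup1 came closest to a difference by size. Control livers ran from 1077 CPM (Control 245) through a median of 2391 to 3990 CPM. Red livers ran from 640.2 CPM (Red 177) through 2493 to 4145 CPM, and Tangerine livers from 2471 CPM through 3026 to 4193 CPM. All 12 Tangerine livers lay above the Control median, and 11 of 12 above the Red median, although the ranges overlapped.
Between Tangerine and Control the fitted log2 difference of Mup1 was 0.37 (SE 0.19, 95% interval -0.01 to 0.75, adjusted p 0.920). Against Red it was 0.32 (SE 0.19, adjusted p 0.424), and between Red and Control 0.05 (SE 0.19, adjusted p 0.938). Without Control 245 and Red 177 the values were 0.30, 0.22 and 0.07.

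Mup2 was the gene with an unadjusted p under 0.05 in Tangerine against Control. Its level ran from 1385 CPM through a median of 2609 to 3995 CPM in Control, from 1443 through 2972 to 4952 CPM in Red, and from 2794 through 3166 to 4079 CPM in Tangerine. Every Tangerine liver again lay above the Control median, 3 of the 12 above the highest Control liver, and all inside the Red range.
The log2 fold change was 0.32 (SE 0.14, 95% interval 0.03 to 0.60, p 0.031, adjusted p 0.834). For Red against Control it was 0.14 (SE 0.14, adjusted p 0.695), and for Tangerine against Red 0.17 (SE 0.14, adjusted p 0.583).

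Mup11 ran from 1804 CPM through a median of 3380 to 5745 CPM in Control livers. It ran from 2049 through 3719 to 7449 CPM in Red and from 3448 through 4328 to 5893 CPM in Tangerine. The lowest values were in Control 189 and Red 186 and the highest in Red 156, and all 12 Tangerine livers lay above the Control median. The difference of Tangerine from Control was 0.32 on the log2 scale (SE 0.16, 95% interval -0.003 to 0.63, adjusted p 0.920).

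Mup17 ran from 649 CPM through a median of 1239 to 2882 CPM in Control, where the highest library was Control 245. Red livers ran from 817 through 1664 to 2830 CPM and Tangerine livers from 1259 through 1795 to 2422 CPM. Red was above the Control median in 11 of 12 livers and Tangerine in 12 of 12. The log2 fold changes were 0.20 for Red (SE 0.18, adjusted p 0.671) and 0.26 for Tangerine (SE 0.18, adjusted p 0.981), and without Control 245 and Red 177 they were 0.33 and 0.39.

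Mup7 had the widest spread of the 8. Control livers ran from 1071 CPM (Control 189) through a median of 3274 to 6012 CPM, Red livers from 1338 (Red 177) through 3684 to 8128 CPM (Red 156), and Tangerine livers from 2810 through 4147 to 6287 CPM. In Tangerine, 9 of 12 livers were above the Control median. The log2 fold change of Tangerine against Control was 0.31, close to that of Mup2 and Mup11, but its SE was 0.23 (95% interval -0.16 to 0.79, adjusted p 0.995).

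That all 12 Tangerine libraries exceeded the Control median held for Mup1, Mup2, Mup11 and Mup17, and for 79 of the 14068 genes tested, or 0.562%. These 4 share reads and are not 4 separate observations. As a group the 5 central members summed to 13717 ± 3972 CPM in Control, 15172 ± 5558 in Red and 17115 ± 3285 in Tangerine (SD, n = 12 each).

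Of the peripheral members, Mup3, which is also a lipocalin and held most sequence of its own, was even between livers. It ran from 6821 CPM through a median of 8530 to 10075 CPM in Control, from 5740 (Red 186) through 8199 to 9003 CPM in Red, and from 7569.6 through 8174 to 10246 CPM in Tangerine. The Red values were the lowest of the 3 diets at both ends. Red differed from Control by -0.14 on the log2 scale (SE 0.07, 95% interval -0.29 to 0.01, adjusted p 0.425), and Tangerine by -0.05 (SE 0.07, 95% interval -0.20 to 0.10, adjusted p 0.9999).

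Mup20, the darcin gene, ran from 1027 CPM (Control 189) through a median of 2384 to 3190 CPM in Control. Red livers ran from 648 CPM (Red 177) through 2276 to 3276 CPM, and Tangerine livers from 1686 through 2350 to 3925 CPM (Tangerine 242). Apart from Control 189, the low libraries were Control 159 at 1086 CPM and Red 186 at 830.2 CPM. The log2 fold changes were -0.02 for Red (SE 0.20, adjusted p 0.979) and 0.11 for Tangerine (SE 0.20, 95% interval -0.31 to 0.53, adjusted p 0.9999). The Red value turned to 0.06 without Red 186 and Tangerine 216, and to 0.03 without Control 245 and Red 177.

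Mup21, the least abundant of the 8 per kilobase, ran from 195 CPM through a median of 416 to 646 CPM in Control, from 213 through 423 to 618 CPM in Red, and from 219 through 402 to 603 CPM in Tangerine. The 3 ranges were nearly the same, and 6 of 12 livers of each tomato diet were above the Control median. Its log2 fold change was 0.02 for Red (SE 0.17, adjusted p 0.975) and 0.01 for Tangerine (SE 0.17, 95% interval -0.33 to 0.36, adjusted p 0.9999), with a sign that turned without Red 186 and Tangerine 216 (-0.03).

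**Figure D3:**
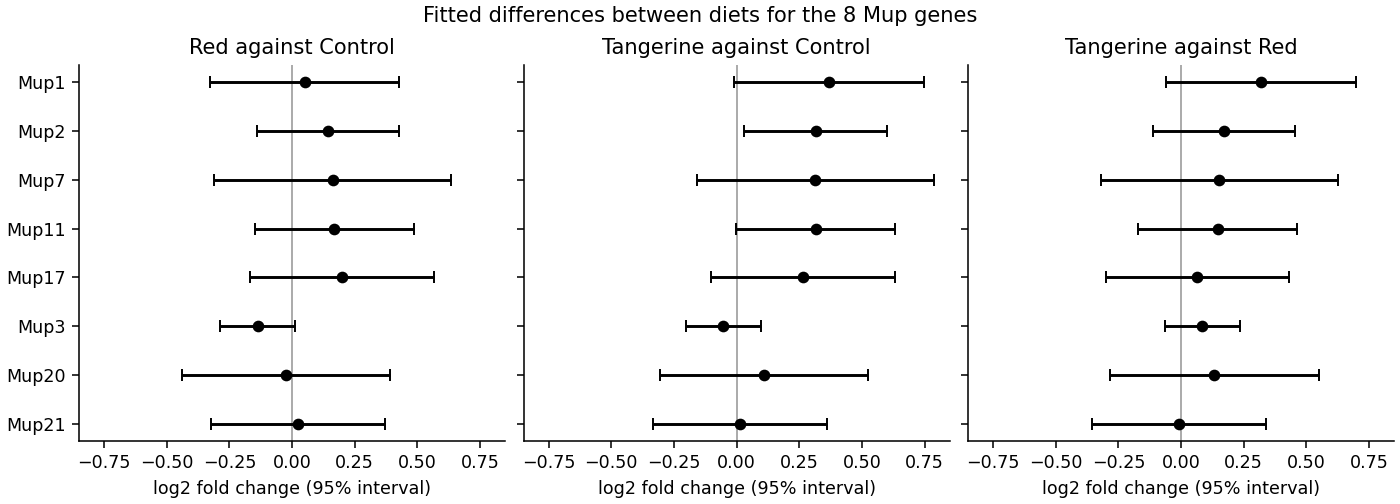
Fitted log2 fold change (horizontal axis) of each Mup gene (vertical axis) in 3 comparisons between diets; points are edgeR estimates and bars 95% intervals. In Tangerine against Control the 5 central members sit between 0.26 and 0.37, and the peripheral members between -0.05 and 0.11, with all intervals but that of Mup2 crossing 0.

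Across the list, the fitted differences leaned upward but within the spread. In Tangerine against Control 7 of 8 members had a positive log2 fold change, with a median of 0.29 beside -0.01 for all genes tested, of which 44.6% were positive. For Tangerine against Red it was 7 of 8 with a median of 0.14 (all genes -0.005, 48.5% positive). For Red against Control it was 6 of 8 with a median of 0.10 (all genes -0.005, 48.5% positive). These comparisons share libraries, and members that share reads are not separate observations.

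The members differed in how much they varied between livers of the same diet. On the log2 scale the SD within a diet was 0.62 for Mup7, 0.56 for Mup20, 0.52 for Mup1, 0.46 for Mup17, 0.45 for Mup21, 0.40 for Mup11, 0.37 for Mup2 and 0.18 for Mup3. The median gene of the 1192 with at least 100 CPM on average had an SD of 0.18. Mup3 was therefore as even as a typical abundant gene (45.8th percentile of those 1192), and Mup7 was at the 97.5th percentile.

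Tangerine livers were the most even, without a test of that difference: the coefficient of variation of the sum over the 8, as a share of all counts, was 13.4% in Tangerine, 19.7% in Control and 26.9% in Red. Mup3 made up 50.03% of the sum in Control 189, which had the lowest Control sum, and 21.9% in Red 156, which had the highest of all.

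The makeup of the family differed somewhat between diets, and the shares were given no test. Mup3 made up 35.7 ± 5.9% of the sum in Control, 32.3 ± 5.7% in Red and 30.1 ± 3.4% in Tangerine (SD, n = 12 each). Mup1 made up 9.48 ± 1.76%, 9.54 ± 1.79% and 11.0 ± 0.95%, and Mup20 8.83 ± 2.12%, 8.28 ± 2.14% and 8.47 ± 1.51%. The Mup3 share was below the Control median in all 12 Tangerine livers.
Mup2 made up 10.6 ± 0.64% in Control, 11.4 ± 0.99% in Red and 11.7 ± 0.37% in Tangerine, where 12 of 12 livers lay above the Control median and 9 of 12 above the highest Control liver. Mup11 made up 14.2 ± 1.85%, 15.5 ± 1.21% and 15.7 ± 0.89%, and Mup17 5.87 ± 2.25%, 6.73 ± 1.77% and 6.22 ± 0.67%. For both, all 12 livers of each tomato diet lay above the Control median. As shares of 1 sum these values are not independent, and those of the central members can move with how reads were divided.

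Control 245 and Red 177 differed from the rest in which central gene held the counts. Mup1 was 1077 CPM in Control 245 (1152 to 3990 CPM in the other 11 Control livers) and 640.2 CPM in Red 177 (1587 to 4145 CPM in the other 11 Red livers). Mup17 was 2882 CPM in Control 245, above the 649 to 2430 CPM of the other Control livers, and 1730.0 CPM in Red 177, inside the Red range. Both libraries thus had little Mup1 for the amount of Mup17, whether the sum was near the median (22730 CPM in Control 245) or low (14462 CPM in Red 177).
Among the Mup genes outside the list, several lay outside the range of the other Control livers in Control 245, among them Mup6, at 1129 CPM against 93.2 to 502 CPM in the other Control livers, Mup13, at 2476 against 667 to 1900 CPM, and the pseudogenes Mup-ps22, at 807 against 159 to 557 CPM, and Mup-ps19, at 1173 against 301 to 1002 CPM. In Red 177 these were at 412, 1303, 519 and 454 CPM, each inside the Red range. Its sum over all Mup symbols, 30440 CPM, was however the lowest of the Red livers. These are levels, and their shares of the Mup counts were not compared. Both libraries were picked out after their values were seen, and their makeup beside the diets was not tested.

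**Figure D4:**
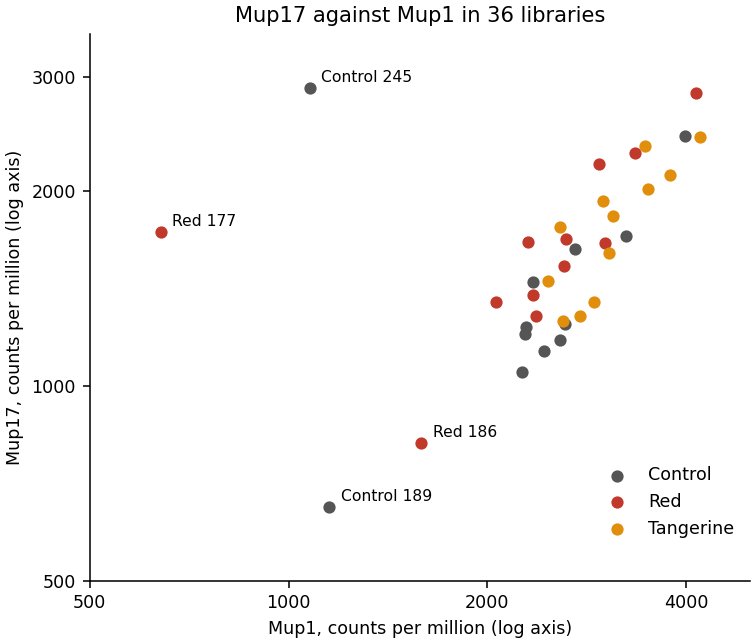
Mup17 against Mup1 CPM, both on log axes, with 1 point per library coloured by diet. Control 245 and Red 177 lie above the band of the other 34 libraries, and Control 189 and Red 186 lie at its low end.

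Livers with more of one member had more of the others. With diet means subtracted, Pearson's r between log2 CPM of 2 central members ran from 0.37 (Mup1 with Mup17) to 0.95 (Mup2 with Mup11) over 36 livers. Without Control 245 and Red 177 the 10 central pairs lay between 0.89 and 0.97. Pairs of a central and a peripheral member ran from 0.38 to 0.74, and the 3 peripheral pairs from 0.68 to 0.77. These are descriptions: members share reads, library and depth.

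Beyond the family, the genes whose level followed the Mup sum most closely were Cyp7b1 (r = 0.85), Gstp1 (0.83), Nat8f1 (0.81), C9 (0.80) and Gm3839 (0.78), chosen as the 5 highest among 14029 genes that are no Mup gene, over 36 livers and with diet means subtracted. Cyp7b1 is an oxysterol hydroxylase and Gstp1 a glutathione transferase, both known to be higher in male liver, and C9 is a terminal complement component. Cyp7b1 ran from 49.2 CPM in Control 189 to 287 CPM in Red 156, a library among the 3 lowest in Mup sum and the highest of all. Gstp1 ran from 131 CPM in Red 177 to 497 CPM in Red 156.

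At the opposite end were Ctse (r = -0.85), Morc4 (-0.74), Igsf11 (-0.70), Rad51b (-0.69) and Cyp3a11 (-0.69). Ctse encodes the aspartic protease cathepsin E, and Cyp3a11 a cytochrome P450 that oxidises many drugs and steroids. Ctse was 25.2 CPM in Red 177 and 6.33 CPM in Red 156. Cyp3a11 was 1087 CPM in Red 177 and 156 CPM in Red 156.

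The 3 livers with the lowest Mup sum after diet means were subtracted, Control 189, Red 177 and Red 186, lay apart from the others. The correlations were smaller without them, over 33 livers. They were 0.72 for Cyp7b1, 0.72 for Gstp1, 0.59 for Nat8f1, 0.79 for C9 and 0.70 for Gm3839. On the opposed side they were -0.77 for Ctse, -0.55 for Morc4, -0.55 for Igsf11, -0.59 for Rad51b and -0.61 for Cyp3a11. Within diets, r for Cyp7b1 was 0.86 in Control, 0.97 in Red and 0.54 in Tangerine, and for Ctse -0.75, -0.94 and -0.62. As the genes were picked by their r, no p is given.

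**Figure D5:**
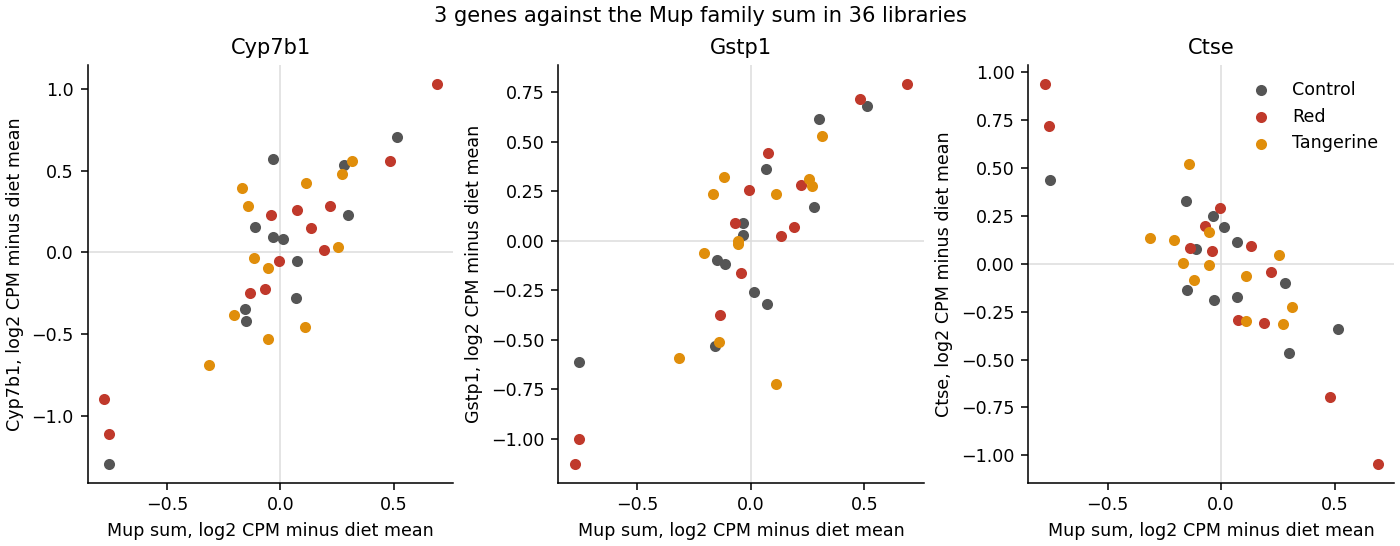
Log2 CPM of Cyp7b1, Gstp1 and Ctse (vertical axes) against that of the Mup sum (horizontal axes), each with its diet mean subtracted, for 36 libraries coloured by diet. Cyp7b1 and Gstp1 are high where the sum is high and Ctse is low there, and 3 libraries lie apart at the low end of the sum.

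Known groups of liver genes were set beside the members. Of 16 tested genes with male-biased liver expression, 8 had r above 0.5 with the Mup sum, against 1.26% of all genes that are no Mup gene. Besides Cyp7b1 and Gstp1 they included the selenium-binding protein gene Selenbp2 (0.77), the protease inhibitor gene Serpina1e (0.74) and the cytochrome P450 gene Cyp2d9 (0.58). Without the 3 lowest livers it was 6 of 16, against 0.513%. The median r of the male-biased genes was 0.43, with 14 of 16 positive. Other liver lists also leaned upward. Of the other liver lipocalins 2 of 9 had r above 0.5 (median 0.40, 8 of 9 positive). Among hepatocyte markers it was 1 of 8 (median 0.22, 8 of 8 positive). In Control, Red and Tangerine alone, r was 0.73, 0.90 and 0.50 for Selenbp2 and 0.74, 0.89 and 0.36 for Serpina1e. For Cyp2d9 it was 0.48, 0.79 and 0.34. Of 14 tested female-biased genes, 3 had r under -0.5, against 0.955% of all genes. These were the cytochrome P450 genes Cyp2b9 (-0.66), Cyp3a44 (-0.63) and Cyp3a16 (-0.57). Their mean levels were low, at 3.64, 2.56 and 1.14 CPM. Within Control, Red and Tangerine, r was -0.68, -0.86 and -0.42 for Cyp2b9. It was -0.29, -0.77 and -0.62 for Cyp3a44 and -0.31, -0.81 and -0.22 for Cyp3a16.

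Male-biased genes did not all follow the sum: Elovl3, a fatty acid elongase, had r = 0.17, Slco1a1, an organic anion transporter, 0.16, and Cyp4a12a, a fatty acid hydroxylase, -0.26. The value of Elovl3 joins unlike diets, with r = 0.31 in Control, 0.66 in Red and -0.61 in Tangerine. Of 15 growth hormone signalling genes and 11 transcription regulators of Mup and steroid response, 0 had r beyond 0.5 in either direction over 36 livers. Ghr, the growth hormone receptor, had 0.20, Stat5b -0.18 and the glucocorticoid receptor gene Nr3c1 -0.09. In Control, Red and Tangerine alone, r was -0.41, 0.27 and -0.76 for Stat5b. It was 0.31, 0.24 and 0.01 for Ghr and -0.06, -0.10 and -0.17 for Nr3c1. Also beyond 0.5 within a diet were Hnf4a (0.57) and Igf1 (0.53) in Control and Ptpn1 (-0.54) in Red. In Tangerine these were Stat5a (-0.54) and Esr1 (0.56). These differences between diets were not tested.

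Few genes of these groups were called between diets. Among the growth hormone genes 0 of 15 were called in any of the 4 contrasts by edgeR, with 3 (Red against Control), 0 (Tangerine against Control), 5 (between the tomatoes) and 2 (both tomatoes against Control) at an unadjusted p under 0.05, beside 13.3, 5.47, 15.1 and 6.77% of all genes. Those with the smallest p in Tangerine against Red were Stat5a, a transducer of the hormone's signal (log2 fold change -0.43, SE 0.12, adjusted p 0.0645), the phosphatase gene Ptpn1 (-0.14, SE 0.05, adjusted p 0.104) and Ghr (0.20, SE 0.07, adjusted p 0.132). Of the 11 regulators 1 was called, in Tangerine against Red, where 1.71% of all genes were called. Cebpa, a liver transcription factor, was higher in Tangerine (363 ± 55 CPM) than in Red (292 ± 46 CPM). Its log2 fold change was 0.31 (SE 0.08, adjusted p 0.0452). The call was lost with no filter on low counts (adjusted p 0.0578), with mouse number in the model (0.108), without Red 186 and Tangerine 216 (0.126) and with the log2 ratio of Dbp to Arntl in the model (0.723).

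Among 16 tested male-biased and 14 tested female-biased genes 0 were called in each of the 4 contrasts. The smallest p values in Tangerine against Red belonged to Elovl3 (log2 fold change -1.16, SE 0.33, adjusted p 0.0657), Cyp4a12b (-0.29, SE 0.12, adjusted p 0.226) and Slco1a1 (0.23, SE 0.13, adjusted p 0.389) of the first list. Of the second they belonged to Cyp2a4 (0.91, SE 0.26, adjusted p 0.0687), Cyp39a1 (0.40, SE 0.16, adjusted p 0.209) and Cyp2b13 (0.56, SE 0.26, adjusted p 0.299). The other liver lipocalins, relatives of the members that carry retinol and other small molecules in plasma, had 0 of 9 called. Rbp4, the retinol carrier, had 0.20 (SE 0.07, adjusted p 0.148), C8g 0.10 (adjusted p 0.487) and Ptgds -0.34 (adjusted p 0.561).

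Markers of liver and other cell types were read from the same fit. Of 8 hepatocyte markers 2 were called in Tangerine against Red, beside 1.71% of all genes. Cps1, the first enzyme of the urea cycle, was higher in Tangerine (4307 ± 851 CPM) than in Red (3262 ± 519 CPM; log2 fold change 0.40, SE 0.11, adjusted p 0.0446). The call was lost without Red 186 and Tangerine 216 (adjusted p 0.112) and without Control 245 and Red 177 (0.0659). Fgb, a fibrinogen chain, was lower (4086 ± 543 against 5049 ± 726 CPM; -0.31, SE 0.08, adjusted p 0.0320). With the ratio of Dbp to Arntl in the model the adjusted p was 0.459 for Cps1 and 0.417 for Fgb, and both calls were also lost with no low-count filter (0.0578 and 0.0642) and with mouse number in the model (0.0966 and 0.0952). With only the compared diets in the fit, Fgb had 0.0518.
Of 4 tested lymphocyte markers 2 were called in Tangerine against Red, beside 1.71% of all genes. Lck and Thy1, both T cell genes, were lower in Tangerine than in Red (log2 fold changes -2.59 and -2.37, adjusted p 0.0413 for each). Without Red 186 and Tangerine 216 they were 0.12 (adjusted p 0.871) and -0.02 (0.972). Both calls were also lost with no low-count filter (adjusted p 0.0913 for each), with only the compared diets in the fit (0.0974 and 0.0987), with mouse number (0.0688 and 0.0648), with the ratio of Dbp to Arntl (0.760 and 0.696) and under limma-voom (0.915 and 0.860). Of the adipose, Kupffer cell, endothelial and stellate, and cholangiocyte markers, 0 of 2, 6, 6 and 4 tested were called in any of the 4 contrasts by edgeR, and at an unadjusted p under 0.05 there were 1 endothelial or stellate gene in Red against Control and 1 cholangiocyte gene in Tangerine against Red.

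The clock pair was called between the tomato diets in the main edgeR fit, but not in every alternative. Dbp, an output gene of the circadian clock, and Arntl, a core clock gene that peaks at the opposite time, differed between Tangerine and Red (log2 fold change 1.84, SE 0.46, adjusted p 0.0289, and -1.46, SE 0.40, adjusted p 0.0464). Both calls were lost with no low-count filter (adjusted p 0.0627 and 0.101) and with mouse number in the model (0.113 and 0.0966). They were also lost without Red 186 and Tangerine 216 (0.0984 and 0.121). Over 36 livers with diet means subtracted, r between the log2 ratio of Dbp to Arntl and the Mup sum was 0.07 (Spearman's rho 0.22), and for single members it ran from -0.08 (Mup3) to 0.18 (Mup17). Spearman's rho was higher for the 5 central members, 0.27 to 0.33. Within Tangerine the sum had r = 0.55 with Dbp and -0.52 with Arntl, within Red -0.04 and 0.08, and within Control -0.15 and -0.19 (12 livers each), and the difference between diets was not tested. With this ratio in the model 0 of 8 members were called in each comparison.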

How the data were processed

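Liver RNA was sequenced as 36 libraries, each under its own mouse number, made with a directional kit per the labels' protocols, which give 11 to 12 mice per group. The deposited table holds whole-number read counts per Ensembl gene made by the authors. Per the submitters' processing notes FastQC, Trimmomatic, edgeR and the GRCm38.p6 build were used; the aligner, the counter, its strand setting and its treatment of reads matching several genes are not given in the sources used here. Symbols were found for 53620 of 53715 identifiers in GENCODE M21.

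Genes were filtered with edgeR 4.0.16's filterByExpr (minimum count 10), scaled by TMM and fitted with its robust quasi-likelihood model over all 36 libraries with diet as the term. Benjamini-Hochberg adjustment ran over 14068 genes, and the threshold was 0.05. Intervals are 95%. Each group had 12 libraries, which limits the precision. The sum over members was described without a test. Correlations used log2 CPM (prior count 2) with diet means subtracted. Coding sequences were aligned with MAFFT 7.526. The script was tested on simulated data.

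The members and gene lists were chosen with earlier results of these data known. Genes named were the 8 members, other Mup genes with a count, list genes past the threshold or else the 3 with the smallest p in Tangerine against Red, and the 5 genes on each side with the most extreme r to the Mup sum. Cell type markers past the threshold were added after their values were seen. Alternatives were DESeq2 size factors, other low-count filters, DESeq2 1.42.0, limma-voom (limma 3.58.1), fits of the compared diets alone, covariates, libraries left out and scaling without Mup genes.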

Additional observations from a re-analysis of the deposited data

How the results depend on the processing

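The number of members called stayed 0 in all 53 alternative values, among them DESeq2, limma-voom and fits with fewer libraries, and 332 alternative log2 fold changes of members kept their sign while 12 did not. The lowest adjusted p of any member over these was 0.100, for Mup17 in Red against Control under limma-voom. The 12 turned signs belonged to Mup17, Mup20 and Mup21. With the Dbp to Arntl ratio in the model, Mup21 was -0.014 in Tangerine against Control and Mup17 -0.0090 between the tomatoes. With mouse number in the model these were -0.079 and -0.061, and Mup21 was -0.030 for both tomatoes against Control. Without Red 186 and Tangerine 216 they were -0.028 and -0.027, and Mup20 was 0.056 in Red against Control. Mup20 was 0.030 there without Control 245 and Red 177, a setting chosen after seeing the data, and 0.14 under limma-voom. Under limma-voom Mup17 and Mup20 were -0.024 and -0.018 between the tomatoes. The cause was not tested.

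Summing all Mup genes gave means of 53696, 56700.4 and 63608 CPM in Control, Red and Tangerine, and summing the 5 central members 13717, 15172 and 17115 CPM, by construction. Leaving out each library in turn, the log2 difference of the sum ran from -0.06 to 0.08 for Red against Control, turning negative without any of 9 libraries; from 0.12 to 0.24 for Tangerine against Control; from 0.11 to 0.24 between the tomatoes; and from 0.03 to 0.15 for both against Control. Calls over the whole table depended on the tool: Red against Control had 21 genes by edgeR, 167 by DESeq2, 1482 by limma-voom, 59 with the stricter low-count filter, 53 without Red 186 and Tangerine 216, 33 without Control 245 and Red 177 and 4 with the Dbp to Arntl ratio. Tangerine against Control had 2, 7 by DESeq2 and 1 with mouse number. Between the tomatoes the 241 became 421, 732, 136 without a filter, 86 without Red 186 and Tangerine 216, 32 with mouse number and 0 with the Dbp to Arntl ratio (1619 at an unadjusted p under 0.05 by edgeR). Both tomatoes against Control had 1, then 12, 34, 6 without a filter and 2 without Red 186 and Tangerine 216. Any difference among the diets had 166 genes, 77 without Red 186 and Tangerine 216, 73 with mouse number and 1 with the Dbp to Arntl ratio. No paired analysis was possible because each mouse number occurs in 1 diet.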

Other observations

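The other Mup genes carried more than the 8 described. Of the Mup symbols outside the list, 37 had a count, and 14 of those are protein-coding genes. Mup22 held 10.2% of all Mup counts, Mup8 8.62%, Mup9 6.82%, Mup12 5.53%, Mup14 4.69% and Mup10 4.24%, beside 14.4% for Mup3, the largest of the list. These are shares of reads and not levels per length. The protein-coding genes Mup5 and Mup4 held 0.006 and 0.0031%. The pseudogenes Mup-ps19, Mup-ps22 and Mup-ps17 held 1.20, 0.777 and 0.229%.

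By edgeR 0 of the 39 Mup symbols tested were called in any of the 4 contrasts. In Tangerine against Control 34 of 39 had a positive log2 fold change, with a median of 0.27, and 7 of 39 had an unadjusted p under 0.05 beside 5.47% of all genes. Besides Mup2 these were Mup19, Mup22, Mup16, Mup10, Mup-ps17 and Mup-ps13. Mup19 was at 1717 ± 527 CPM in Control and 2341 ± 559 CPM in Tangerine (log2 fold change 0.45, SE 0.17, adjusted p 0.697), and Mup22 at 5378 ± 947 and 6600 ± 887 CPM (0.30, SE 0.11, adjusted p 0.701). As near-identical genes share reads, these are not separate observations.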
